A study of Mus musculus with 11 samples.

Results

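The Hes and Hey repressors were followed across 11 single-color arrays of mouse Leydig tumor cells (MLTCs) transfected with *Mamld1* siRNAs or with non-targeting RNA. The genes taken were *Hes1*, *Hes3*, *Hes5*, *Hes6*, *Hes7*, *Hey1*, *Hey2*, and *Heyl*, that is 8 of the 17016 genes that could be named on the array. They are represented by 10 probes of 41174, because *Hes6* and *Heyl* have a pair of probes each, and every one of the 10 probes lies on a single spot. Non-targeting RNA was given to 4 samples (control), siRNA1 to 4, and siRNA2 to 3, each at 20 nM for 48 hours with a lipid reagent, and RNA was hybridized to one array per sample. MLTCs are the single tumor line MLTC-1, so the arrays describe one cell line and no animal. The methods place the harvest 1 hour after hCG was added, whereas the sample labels name no hCG. The labels do not say whether replicates came from separate transfections, so the p-values measure the spread between these arrays, which may be technical.

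Hes and Hey proteins are basic helix-loop-helix (bHLH) repressors with an Orange domain. When a Notch receptor is cleaved, its intracellular part joins Rbpj and a Mastermind-like coactivator on DNA, and *Hes1*, *Hes5*, *Hey1*, *Hey2*, and *Heyl* are classic genes switched on this way. Hes proteins recruit Tle corepressors and also hold down their own promoters. Hes6 is the exception of the family, since it opposes Hes1 and is not a typical Notch target. *Mamld1* encodes a Mastermind-like protein, and its human counterpart was reported to activate the *Hes3* promoter. The question asked here is whether the family moves when *Mamld1* is reduced. The study itself asked how *Mamld1* knockdown lowers testosterone production, and whether *Hes3* is relevant to it.

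Levels are percentages, with the geometric mean over the 4 control arrays as 100%, after each array was set to the 75th percentile of its own signals. The scanner software marks each spot that stands well above background, and limma was run over all 11 arrays on the 24250 probes that were so marked throughout 1 group or more. Passing the test means an adjusted p (Benjamini-Hochberg) of 0.05 or below. The 75th percentile of the signal was 469.7 to 582 on the control arrays, 601 to 774 with siRNA1, and 488 to 579 with siRNA2. The lowest signal marked as well above background was 6.94 to 8.90 per array, and the median over the negative control spots was 1.61 to 2.04. The *Mamld1* probe cleared the background on each of the 11 arrays and fell with both siRNAs, by 0.93 on the log2 scale with siRNA1 (SE 0.20, limma adjusted p = 0.00571) and by 0.77 with siRNA2 (SE 0.22, adjusted p = 0.0309). Without scaling between arrays its siRNA2 value was -0.68 and missed the threshold (adjusted p = 0.0915). On the spot reading minus its local background, scaled the same way, its ratio to control was 0.694 and 0.776, and the groups overlapped (exact permutation p = 0.229 and 0.4). All 7 markers of Leydig cells on the array, among them *Star*, *Cyp11a1*, and *Lhcgr*, were well above background on 11 arrays. *Lhcgr* fell with siRNA1 by 0.63 (limma adjusted p = 0.00285) and stood at 0.16 with siRNA2 (adjusted p = 0.471). *Cyp17a1*, given below, fell with both, and no other marker passed against control. Their summed signal, with the control mean as 100%, was 85.3% to 112% in control. It was 78.3% to 90.8% with siRNA1 and 95.8% to 116% with siRNA2. *Hsd3b1* was the brightest of them (mean signal 102555).

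Of the 10 Hes and Hey probes, 6 probes of 5 genes could be tested. With siRNA1, *Hes1* rose, the brighter *Hes6* probe fell, and *Hey1* was higher, which makes 3 of 6 probes past the test, where 27.0% of all tested probes passed. With siRNA2, both *Hes6* probes fell and *Hey1* was higher, again 3 of 6, where 18.4% of all tested probes passed. Between the siRNAs, *Hes1* alone differed, 1 of 6 against 23.5% of all tested probes. *Hes6* probe 1 fell with both siRNAs, as did 4.22% of all tested probes, and 4.08% rose with both. *Hes3* and *Hes5* did not pass the test in any of the 3 comparisons. *Hey1* entered the test only through its siRNA arrays, where it was higher, so its place in these counts is a description and no support. *Hes3* and *Hes5* entered only through their siRNA2 arrays. *Hes7*, *Hey2*, and both *Heyl* probes were not tested, because no group had them well above background on every array. Both siRNAs were compared with the same 4 control arrays, so their values below are not independent of each other. In RNA from a whole culture, fewer cells that express a gene and less RNA per cell cannot be told apart.

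**Figure D1:**
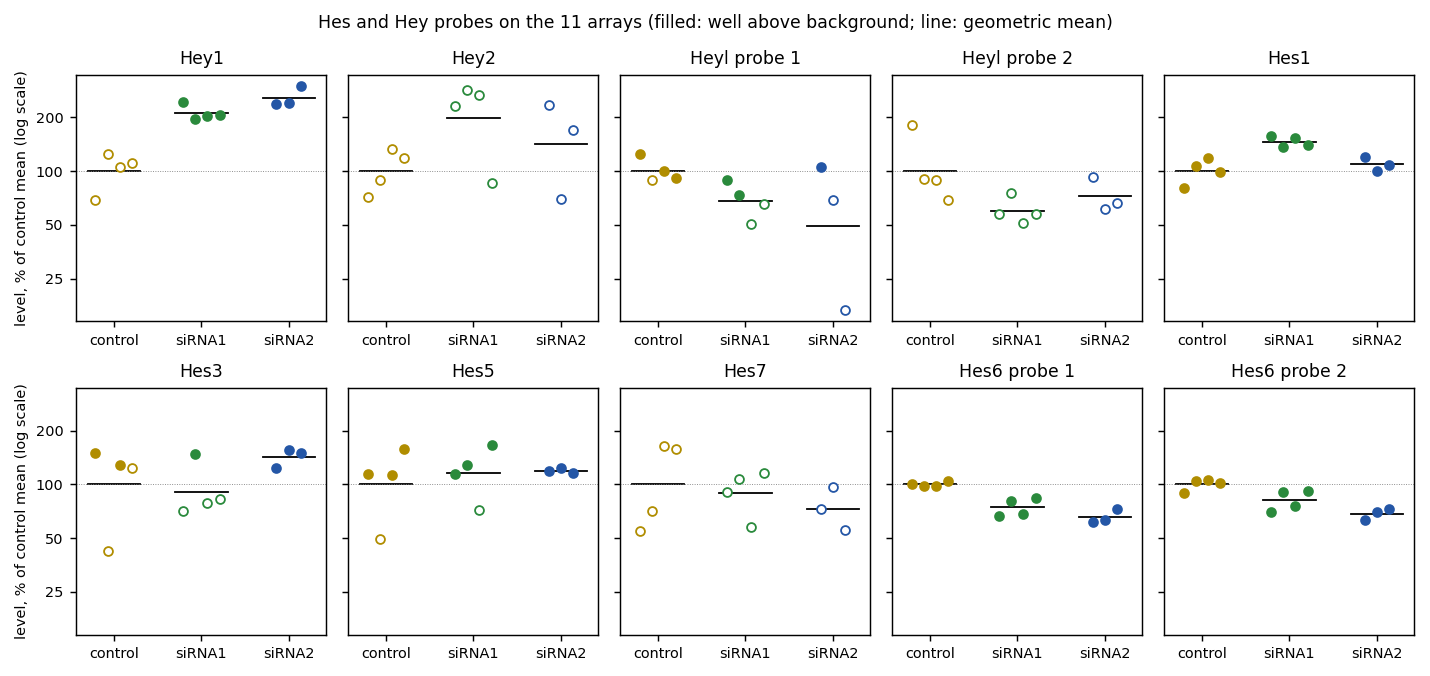
Level of each of the 10 Hes and Hey probes on each array, as a percentage of the control level (geometric mean, log axis), by group. Each point is an array, filled where the spot was well above background and open where it was not, and lines are geometric means. The *Hes6* points are all filled and lie lower with both siRNAs, the *Hey1* points turn from open in control to filled with either siRNA, and *Hes7*, *Hey2*, and *Heyl* probe 2 are open throughout.

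*Hes6*, the family member that counters Hes1, was the one measured far above background. On its brighter probe (probe 1) the mean signal was 3620 ± 315 (SD, n = 4) on the control arrays, 3407 ± 368 (n = 4) with siRNA1, and 2516 ± 38.5 (n = 3) with siRNA2, before arrays were scaled. After scaling, control arrays 1 to 4 read 99.9%, 98.0%, 97.9%, and 104%. With siRNA1 the readings were 66.8%, 80.2%, 68.6%, and 83.4%, and with siRNA2 they were 61.7%, 62.8%, and 72.6%. All 7 siRNA arrays lay below all 4 control arrays, while the ranges of the siRNAs overlapped each other. *Hes6* probe 1 fell by 0.43 with siRNA1 on the log2 scale (SE 0.094, limma adjusted p = 0.00654) and by 0.61 with siRNA2 (SE 0.10, adjusted p = 0.00181). The exact two-sided permutation test gave p = 0.0286 for each siRNA, the smallest value that these numbers of arrays allow. Groups that do not overlap were found for 29.1% of all tested probes with siRNA1 and 28.0% with siRNA2. Between the siRNAs the difference was 0.18 (SE 0.10, adjusted p = 0.231).

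The dimmer *Hes6* probe (probe 2) gave the same order of groups. Control readings were 88.9%, 105%, 105%, and 102%, those with siRNA1 were 69.9%, 90.4%, 75.2%, and 91.7%, and those with siRNA2 were 63.0%, 70.2%, and 72.7%. With siRNA2 the probe fell by 0.55 (SE 0.12, limma adjusted p = 0.00765), and the groups did not overlap. With siRNA1 the log2 difference was -0.30 (SE 0.11, adjusted p = 0.0630), which missed the threshold, and siRNA1 arrays 2 and 4 lay above the lowest control array. With the slide as a block it passed, at -0.34 (adjusted p = 0.0204). The software's own error for a spot was 10.0% of the signal for both probes on every array.

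The scale of the arrays bears on the size of the *Hes6* change. The siRNA1 arrays were brighter as a whole, and without any scaling between arrays the median log2 fold change over all tested probes moved to 0.29 with siRNA1 and 0.081 with siRNA2. On that unscaled basis *Hes6* probe 1 stood at -0.090 with siRNA1 (limma adjusted p = 0.595) and -0.52 with siRNA2 (adjusted p = 0.0282), and probe 2 turned to 0.037 with siRNA1. The *Hes6* decrease with siRNA1 is therefore a decrease relative to the other genes on the same array. Scaling by the median or by quantiles kept probe 1 past the test with both siRNAs. Within each of the 3 slides, where arrays of all groups were scanned side by side, all 7 siRNA arrays lay, after scaling, below the control arrays of their own slide on both *Hes6* probes. On the unscaled spot minus its local background this held for 7 of 7 on probe 1, whereas on probe 2 it held for 5 and 1 lay above. Slides 1 and 2 hold 1 control array each, and the share of all tested probes with such an order was not counted. The log2 difference of probe 1 within a slide was -0.32 to -0.57 with siRNA1 and -0.52 to -0.68 with siRNA2.

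The sequence before the *Hes6* start sites is shown because *Hes6* is the member that fell, beside those of *Hes5* and *Hey2*, which Notch controls through Rbpj. RefSeq windows (GRCm38.p6) of 250 bases upstream of the start were at hand for 4 of the 8 genes, *Hes5*, *Hes6*, *Hes7*, and *Hey2*, with 2 start sites for *Hes6*. Capitals mark TGGGAA, the core letters bound by Rbpj, or TTCCCA, the same letters on the other strand.
Hes6 start 1 (chr1:91414039-91414288, minus strand): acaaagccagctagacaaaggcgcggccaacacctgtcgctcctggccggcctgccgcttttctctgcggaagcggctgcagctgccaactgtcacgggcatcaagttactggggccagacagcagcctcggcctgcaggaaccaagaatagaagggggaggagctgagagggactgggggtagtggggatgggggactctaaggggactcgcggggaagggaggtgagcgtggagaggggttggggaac
Hes6 start 2 (chr1:91413223-91413472, minus strand): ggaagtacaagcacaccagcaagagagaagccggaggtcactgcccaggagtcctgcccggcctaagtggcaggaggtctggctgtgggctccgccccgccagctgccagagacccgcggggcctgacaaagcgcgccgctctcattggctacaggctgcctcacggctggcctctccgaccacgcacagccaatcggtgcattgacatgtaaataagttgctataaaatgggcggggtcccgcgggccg
Hes5 (chr4:154960673-154960922, plus strand): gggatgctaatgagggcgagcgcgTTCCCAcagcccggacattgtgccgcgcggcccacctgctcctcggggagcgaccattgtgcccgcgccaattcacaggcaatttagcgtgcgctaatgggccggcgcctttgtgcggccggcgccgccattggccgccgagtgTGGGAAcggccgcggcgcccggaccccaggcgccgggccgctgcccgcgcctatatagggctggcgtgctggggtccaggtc
Hey2 (chr10:30842784-30843033, minus strand): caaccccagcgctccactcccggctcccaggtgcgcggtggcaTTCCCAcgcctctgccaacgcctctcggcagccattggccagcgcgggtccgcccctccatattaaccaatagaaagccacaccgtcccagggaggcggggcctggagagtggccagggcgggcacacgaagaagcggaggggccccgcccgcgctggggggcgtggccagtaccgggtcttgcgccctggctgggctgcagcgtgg
The *Hes5* window held the letters at 2 positions, 226 and 82 bases before the start, the *Hey2* window at 1 position, 207 bases before it, and the *Hes7* window, not printed, at 1 position, 180 bases before it. Neither *Hes6* window held them. Of 32841 such promoter windows, 21.6% held the core letters on either strand. The N box CACNAG, read by Hes proteins, was found at 1 position in the second *Hes6* window and 1 in the *Hes7* window, against 36.7% of windows with a match. The E box CACGTG, preferred by Hey proteins, was in none of the 5 windows, against 6.02% of all windows. These are matches of letters and not binding sites, and no binding was measured.

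*Hey1*, which encodes a Notch-induced repressor of the Hey branch, was measured above background with the siRNAs alone. Its spot was not well above background on any of the 4 control arrays, with a mean signal of 4.74 ± 1.07 (SD, n = 4). It cleared the background on all 7 siRNA arrays, with 12.5 ± 1.72 (n = 4) for siRNA1 and 12.7 ± 0.469 (n = 3) for siRNA2. Scaled *Hey1* levels were 68.9%, 125%, 105%, and 110% in control, 245%, 195%, 203%, and 207% with siRNA1, and 239%, 239%, and 300.1% with siRNA2. No siRNA array overlapped the control arrays, as for 29.1% of all tested probes with siRNA1 and 28.0% with siRNA2. Because the control level is only a bound, *Hey1* is given as at least 1.32-fold higher for siRNA1 (limma adjusted p = 0.000851), and for siRNA2 as at least 1.61-fold (adjusted p = 0.000450). These bounds hold for the software's processed signal alone. Another background correction, given below, put *Hey1* under both bounds. The measured log2 differences behind those p-values were 1.08 (SE 0.17) and 1.37 (SE 0.18), with control signals that were not well above background. A 2-fold rule on the measured difference counted *Hey1* with each siRNA and 0 of the 6 probes between them, although both bounds lie under 2-fold, and it counted 2.99%, 2.25%, and 3.36% of all tested probes in the 3 comparisons. The siRNAs differed by -0.29 (SE 0.18, adjusted p = 0.299).

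The *Hey1* values depended on how the background was taken off. Its spots read 49 to 65 intensity units on the control arrays and 62.5 to 74 on the siRNA arrays, over a local background of 41 to 48.5. The spot minus its local background was 6, 12, 17, and 23 units on the control arrays, 20.5, 21.5, 27.5, and 28 with siRNA1, and 16.5, 24, and 25.5 with siRNA2. On this plain difference the groups overlapped, through control array 4 on slide 1 and siRNA2 array 1 on slide 3. Within slides they did not, since all 7 siRNA arrays lay above the control arrays of their own slide. Slides 1 and 2 hold 1 control array each, and the gap on slide 1 was 23 against 25.5 and 28 units. The share of all tested probes with such an order was not counted. After division by the 75th percentile of the array, 6 of the 7 siRNA arrays still lay above the controls of their slide. The ratio to control was then 1.33 with siRNA1 (exact permutation p = 0.314) and 1.45 with siRNA2 (exact permutation p = 0.286). With normexp background correction on the same readings, with extreme local backgrounds replaced and no offset, the log2 fold change was 0.27 (limma adjusted p = 0.201) and 0.44 (adjusted p = 0.0797), neither past the test. The same plain difference left *Hes6* probe 1 at a ratio of 0.745 with siRNA1 and 0.658 with siRNA2, with no overlap and an exact permutation p of 0.0286 for each. Both background treatments quoted here were chosen after the data were seen.

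**Figure D2:**
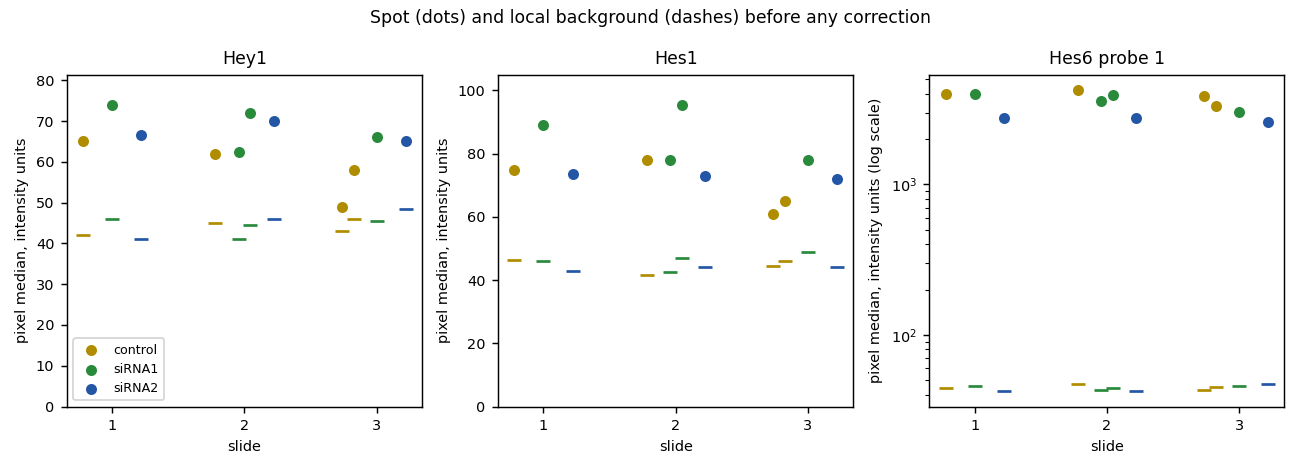
Pixel median of the spot (dots) and of its local background (dashes) on each array, in intensity units before any correction, by slide, for *Hey1*, *Hes1*, and *Hes6* probe 1 (log axis for *Hes6*). *Hey1* spots lie 6 to 28 units over their background, and within each slide the siRNA dots stand higher over their dashes than the control dots do, whereas the *Hes6* spots lie far above theirs.

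Markers of other cell types were read beside *Hey1*. *Cdh5*, which encodes the endothelial cadherin, was well above background on 11 arrays and rose on both of its probes, by log2 fold changes of 0.94 and 1.22 with siRNA1 (limma adjusted p = 0.000959 and 2.14e-05) and 0.84 on each with siRNA2 (adjusted p = 0.00436 and 0.000652). Of the 4 endothelial markers, *Kdr* and *Tek* were well above background on 0 arrays and *Pecam1* on 3. The summed signal of the endothelial list, with the control mean as 100%, was 94.0% to 103% on the control arrays, 188% to 254% with siRNA1, and 164% to 199% with siRNA2. *Cdh5* dominates this sum, with a mean signal of 666 on its brightest probe against 15.9 for *Pecam1*. The higher sum with both siRNAs therefore restates *Cdh5* and does not speak for the other markers. Of the 4 Sertoli cell markers, *Sox9* cleared the background on 0 arrays, *Fshr* on 3, and *Amh* and *Dhh* on 11. Their sum was 94.7% to 106% in control, 85.3% to 106% with siRNA1, and 147% to 177% with siRNA2. It is dominated by *Dhh*, with a mean signal of 1733 against 90.4 for *Amh*. *Dhh*, the hedgehog ligand of Sertoli cells, rose with siRNA2 by 0.72 (limma adjusted p = 0.00103) and stood at -0.13 with siRNA1. Of the 4 fibroblast and peritubular markers, *Col1a1* cleared the background on 0 arrays, *Myh11* on 9, and *Pdgfra* and *Acta2* on 11, and their sums overlapped between groups (90.9% to 119%, 78.1% to 115%, and 82.0% to 119%). These sums are dominated by *Acta2*, with a mean signal of 8021 on its brightest probe against 34.2 for *Pdgfra*. *Pdgfra*, a receptor of fibroblasts, rose with siRNA2 by 0.93 (adjusted p = 0.000568) and stood at 0.092 with siRNA1, and 1 *Acta2* probe fell with siRNA1 by 0.41 (adjusted p = 0.0420, or -0.076 without scaling). Of the 4 macrophage markers, *Ptprc* and *Adgre1* were on 0 arrays and *Csf1r* on 6, and *Cd68* had no named probe. The macrophage sums, from spots near background, were 91.4% to 114%, 71.7% to 249.6%, and 61.3% to 101%. The part of these cell types in the *Hey1*, *Hes1*, and *Hes6* results was not tested.

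*Hes1*, the most general Notch effector and the one that Hes6 opposes, was higher with siRNA1 and not with siRNA2. Its spot cleared the background on all 11 arrays, with mean signals of 15.1 ± 3.38 (SD, n = 4) in control, 27.6 ± 4.84 (n = 4) with siRNA1, and 17.3 ± 2.38 (n = 3) with siRNA2. Scaled *Hes1* levels were 80.4%, 106%, 118%, and 99.1% in control, 156%, 135%, 153%, and 139% with siRNA1, and 120%, 100%, and 108% with siRNA2. The siRNA1 arrays lay above all other arrays, and the siRNA2 arrays lay among the control arrays apart from siRNA2 array 1. Of all tested probes, 29.1% had siRNA1 and control groups that did not overlap. *Hes1* rose by 0.54 with siRNA1 (SE 0.12, limma adjusted p = 0.00605, exact permutation p = 0.0286), and the difference with siRNA2 was 0.12 (SE 0.13, adjusted p = 0.599). The siRNAs themselves differed by 0.42 (SE 0.13, adjusted p = 0.0352, exact permutation p = 0.0286), where 31.3% of all tested probes had siRNA groups that did not overlap. This difference missed the threshold without siRNA1 array 1 (adjusted p = 0.0820), siRNA1 array 3 (adjusted p = 0.0866), siRNA2 array 2 (adjusted p = 0.132), or siRNA2 array 3 (adjusted p = 0.0941). Within slides it was 0.37 to 0.53. On the spot minus local background, scaled, the ratio of siRNA1 to control was 1.24 and the groups overlapped (exact permutation p = 0.229), and the normexp value without offset was 0.23 (adjusted p = 0.120).

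**Figure D3:**
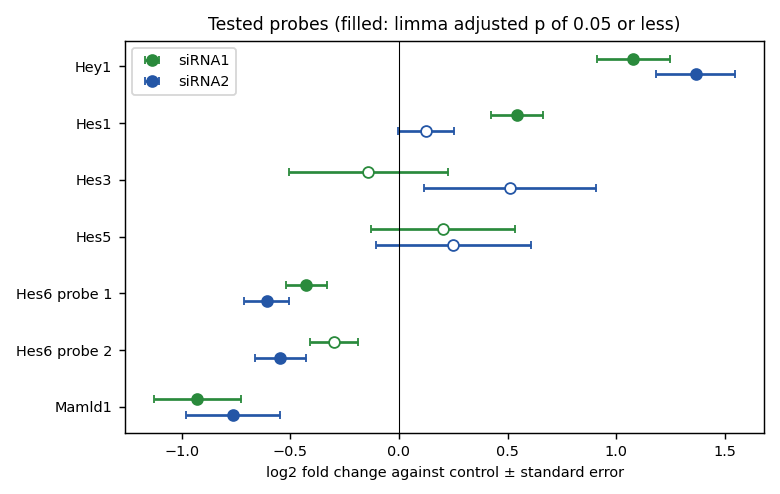
Log2 fold change against control with its standard error from limma, for the 6 tested Hes and Hey probes and *Mamld1*, with siRNA1 in green and siRNA2 in blue. Filled points passed an adjusted p of 0.05. *Hey1* lies at measured differences of 1.08 and 1.37 over control spots that were not well above background, both *Hes6* probes lie below 0 with either siRNA (without scaling between arrays, probe 2 with siRNA1 lay at 0.037), *Hes1* is filled for siRNA1 alone, and *Hes3* and *Hes5* have the widest errors.

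*Hes3*, the promoter linked to Mamld1, could not be resolved at its level. Its spot cleared the background in 2 of 4 control, 1 of 4 siRNA1, and 3 of 3 siRNA2 hybridizations. Control readings were 149%, 42.2%, 129%, and 123%, siRNA1 readings were 71.0%, 148%, 78.4%, and 82.3%, and siRNA2 readings were 124%, 156%, and 150.2%. Control array 2 was the lowest of its group and siRNA1 array 2 the highest of its group. The log2 difference was -0.14 with siRNA1 (SE 0.37, limma adjusted p = 0.815) and 0.51 with siRNA2 (SE 0.39, adjusted p = 0.446), and the sign with siRNA1 turned to 0.20 without scaling. The software's error on single *Hes3* spots was 17.7% to 65.4% of the signal. A change of the size seen for *Hes6* was not detectable with this probe.

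*Hes5*, a Notch effector best known from neural progenitors, ran close to *Hes3* in precision. Its spot cleared the background in 3 of 4 control, 3 of 4 siRNA1, and 3 of 3 siRNA2 hybridizations. Its control arrays ranged from 49.1% to 158%, its siRNA1 arrays from 71.8% to 167%, and its siRNA2 arrays from 116% to 123%. The siRNA2 arrays lay inside the range of both other groups. The log2 difference was 0.20 with siRNA1 (SE 0.33, adjusted p = 0.695) and 0.25 with siRNA2 (SE 0.36, adjusted p = 0.717), and without control array 2 it was -0.14 and -0.091.

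Of the 4 untested probes, 3 were not well above background on any array and *Heyl* probe 1 was on 6 of 11. *Hes7*, the oscillator of the somite clock, was not well above background on any array, with 54.6% to 164% in control, 58.0% to 115% with siRNA1, and 55.1% to 96.6% with siRNA2. *Hey2*, a cardiac and vascular repressor, was likewise not well above background on any array, and siRNA1 array 4 at 85.7% stood apart from the other siRNA1 arrays at 232%, 283%, and 267%. *Heyl* probe 1 cleared the background in 3 of 4 control, 2 of 4 siRNA1, and 1 of 3 siRNA2 hybridizations. Its medians were 95.5%, 69.3%, and 68.5% in that order, and its siRNA2 arrays ran from 16.6% to 105%. *Heyl* probe 2 was not well above background on any array. When all 41174 probes were tested without a filter, limma called 0 probes of these genes, and 1 had an unadjusted p under 0.05, *Heyl* probe 2 with siRNA1 (log2 difference -0.74, limma adjusted p = 0.114).

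The rest of the Notch pathway was read from gene lists, and Notch receptors come first. Of 5 tested probes of 3 genes, 1 fell and 0 rose with each siRNA, and the median log2 fold change was 0.16 with siRNA1 and -0.19 with siRNA2, beside medians of -0.048 and -0.0082 over all tested probes. Falls were called for 15.2% of all tested probes with siRNA1 and 10.7% with siRNA2, and rises for 11.8% and 7.70%. The receptor that fell was *Notch4*, by 0.36 with siRNA1 (limma adjusted p = 0.0401) and by 0.48 with siRNA2 (adjusted p = 0.0210). Its siRNA1 value was -0.32 with arrays centred on their median (adjusted p = 0.101), and without scaling it stood at -0.026 with siRNA1 and -0.39 with siRNA2, neither past the test. Unscaled, the calls described next for *Dll3* (-0.21), *Jag1* (-0.48), and *Dlk1* (0.62) were lost as well, as were those for *Pofut1*, *Poglut1*, *Psen2*, *Tle3*, *Helt* with siRNA1, 1 *Fbxw7* probe, *Tcf12* with siRNA2, *Cdkn1c*, and *Cyp17a1* with siRNA2. Of 4 tested ligand probes, *Dll3*, a ligand that blocks Notch within the same cell, fell with siRNA1 by 0.55 (adjusted p = 0.00757), and its value with siRNA2 was -0.40 (adjusted p = 0.0670). *Jag1*, an activating ligand, fell with siRNA2 by 0.57 (adjusted p = 0.00936), and its value with siRNA1 was -0.32 (adjusted p = 0.0658). *Dlk1*, a ligand that lacks the Notch-activating domain, rose with siRNA2 by 0.53 (adjusted p = 0.0478).

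Among 27 probes for processing and modification of Notch, 5 rose and 4 fell with siRNA1, and 4 rose and 0 fell with siRNA2. Of all tested probes, 11.8% rose and 15.2% fell with siRNA1, and 7.70% rose and 10.7% fell with siRNA2. *Dtx4*, a Deltex ubiquitin ligase that acts on Notch, rose with both siRNAs on 2 of its 3 probes. On these the log2 fold change was 0.65 and 0.71 with siRNA1 and 0.92 and 0.86 with siRNA2, and every siRNA array lay above every control array. Groups without overlap were found for 29.1% of all tested probes with siRNA1 and 28.0% with siRNA2. The remaining *Dtx4* probe stood at 0.74 with siRNA1 (limma adjusted p = 0.0128) and 0.63 with siRNA2 (adjusted p = 0.0503). The other falls with siRNA1 were in genes that add sugars to Notch, *Pofut1* (-0.53) and *Poglut1* (-0.40), and in the protease that cuts it. Its subunits called were *Psen2* (-0.38) and, on 1 probe, *Aph1b* (-0.29, or 0.051 without scaling between arrays). The other tested *Aph1b* probes stood at -0.13 (limma adjusted p = 0.422) and 0.026 (adjusted p = 0.894) with siRNA1. The other rises were in ubiquitin ligases, *Dtx2* (0.38) and *Mib1* (0.35) with siRNA1 and *Fbxw7*, which marks the Notch intracellular part for decay, on 2 probes with siRNA2 (0.56 and 0.64). Of 20 probes of the Rbpj complex and its Mastermind-like proteins, 3 rose and 2 fell with siRNA1. With siRNA2, 0 rose and 1 fell, and that one was *Mamld1* itself. The shares of all tested probes given above apply to this list too. *Rbpj* itself rose with siRNA1 by 0.40 (adjusted p = 0.0220) and stood at 0.20 with siRNA2 (adjusted p = 0.307). The other calls with siRNA1 were the coactivators *Ep300* (0.37) and *Snw1* (-0.23, or 0.11 without scaling), on 1 probe each. Their other tested probes did not pass, at 0.32 for *Ep300* (limma adjusted p = 0.330) and -0.26 for *Snw1* (adjusted p = 0.151). *Maml1*, the Mastermind-like coactivator, rose with siRNA1 by 0.62 (adjusted p = 0.0137), with -0.29 for siRNA2 (adjusted p = 0.292).

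Partners and relatives of Hes and Hey proteins come next. Of 14 tested probes in a list of corepressors that also holds *Runx2*, 4 rose and 2 fell with siRNA1. With siRNA2, 3 rose and 0 fell, and all of these were *Runx2*. Of all tested probes, 11.8% rose and 15.2% fell with siRNA1, and 7.70% rose and 10.7% fell with siRNA2. *Runx2*, a DNA-binding factor that Hes and Hey proteins contact, accounted for 3 of the rises with each siRNA, with log2 fold changes of 1.42, 1.37, and 1.22 with siRNA1 and 0.98, 0.94, and 0.97 with siRNA2. The remaining probe stood at 0.18 and -0.059 and did not pass with either, so the *Runx2* probes disagree. The other calls, all with siRNA1, were *Sirt1*, a deacetylase (0.50), and the Groucho family corepressors *Tle3* (-0.53) and *Tle6* (-0.33, or 0.0086 without scaling between arrays). The other tested *Sirt1* probe stood at 0.32 with siRNA1 and did not pass (limma adjusted p = 0.272). *Helt*, a bHLH-Orange relative of the Hes family, fell by 0.76 with siRNA1 (limma adjusted p = 0.0202). It was well above background on 4 control, 2 siRNA1, and 0 siRNA2 arrays. *Helt* thus entered the test only through its control arrays, where it was higher, so both calls are a description and no support. The fall with siRNA2 (limma adjusted p = 0.00677) is a bound of at least 0.87 on the log2 scale, for the processed signal alone. *Bhlhe41*, another relative and a circadian repressor, rose with siRNA1 by 0.95 (adjusted p = 0.00128) and stood at 0.44 with siRNA2 (adjusted p = 0.101).

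**Figure D4:**
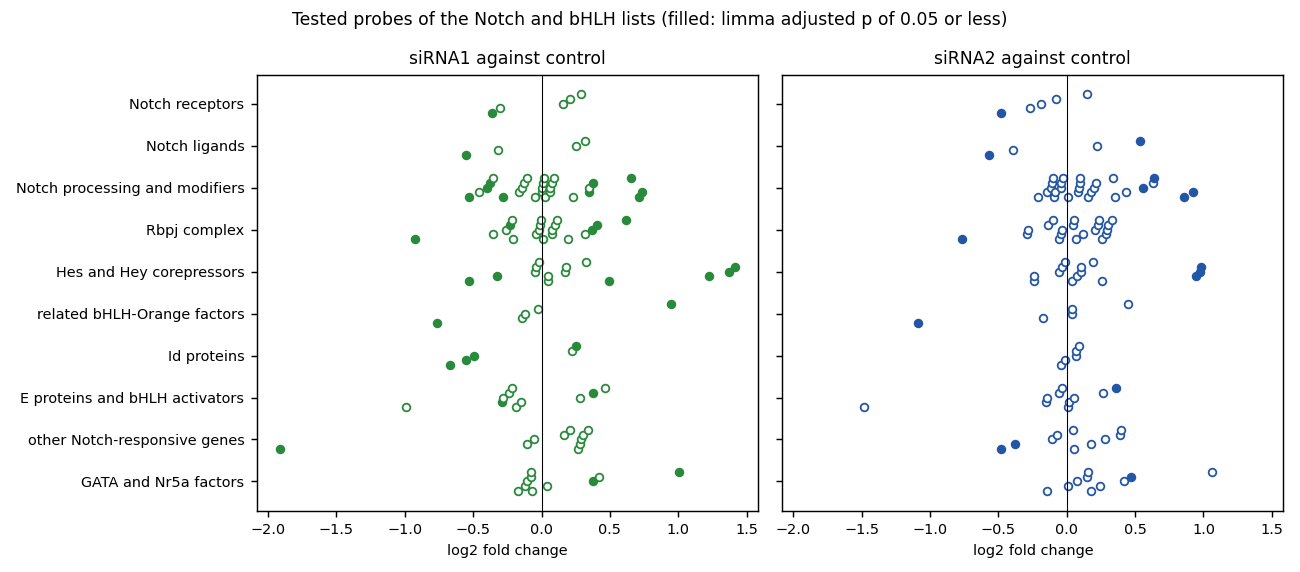
Log2 fold change against control of each tested probe in 10 lists of Notch and bHLH genes, siRNA1 on the left and siRNA2 on the right, with filled points for an adjusted p of 0.05 or less. Vertical offsets within a list only separate the points. In both panels the 3 filled *Runx2* probes lie at the right of the corepressor row, which holds *Runx2* beside the corepressors. The filled Id points of the left panel have no filled counterpart on the right.

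Id proteins, which tie up the E proteins that bHLH factors pair with, were called with siRNA1 alone. Of their 5 tested probes of 3 genes, 3 fell and 1 rose with siRNA1, where 15.2% of all tested probes fell and 11.8% rose. With siRNA2 the smallest limma adjusted p of the list was 0.643. *Id1* fell on both of its probes with siRNA1, by 0.50 (limma adjusted p = 0.000599) and 0.55 (adjusted p = 0.00175), with 0.069 and -0.040 for siRNA2. Without scaling the *Id1* values with siRNA1 were -0.16 (adjusted p = 0.358) and -0.21 (adjusted p = 0.247), neither past the test, and *Id3* was -0.33 (adjusted p = 0.117). The other calls with siRNA1 were *Id3* (-0.67) and 1 probe of *Id2* (0.25). The siRNAs differed on both *Id1* probes (adjusted p = 0.000459 and 0.00465). *Tcf12*, one of those E proteins, rose by 0.38 with siRNA1 (adjusted p = 0.0208) and by 0.36 with siRNA2 (adjusted p = 0.0476). It was the only probe of 10 in its list to pass with both, and 4.08% of all tested probes rose with both. In the list of other Notch-responsive genes, *Snai2*, a repressor of epithelial genes, had a measured difference of -1.91 with siRNA1 (limma adjusted p = 7.87e-05) and -0.11 with siRNA2. Its spot cleared the background in 4 of 4 control, 1 of 4 siRNA1, and 3 of 3 siRNA2 hybridizations. *Snai2* thus entered the test only through groups where it was higher, so its siRNA1 call is a description and no support. With dimmer signals raised to the lowest one marked as well above background, the fall was 1.34, for the processed signal alone. Normexp without offset put the siRNA1 value at -0.91 (limma adjusted p = 0.00205). *Cdkn1c*, a cell cycle inhibitor, fell with siRNA2 by 0.48 (adjusted p = 0.0324) and stood at -0.11 with siRNA1. Among Gata and Nr5a factors, *Gata6* rose on 1 of its 3 probes with both siRNAs, by 0.38 and 0.47. *Nr0b1*, in the same list, rose with siRNA1 by 1.00 (limma adjusted p = 3.23e-05) and stood at 0.25 with siRNA2 (adjusted p = 0.135). *Cyp17a1*, the enzyme of androgen synthesis among the Leydig markers, fell by 0.92 (adjusted p = 0.000216) and 0.48 (adjusted p = 0.0237).

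The pattern of *Hey1*, *Hes1*, and *Hes6* over the arrays was set against 16947 other named probes that had been tested. Among the probes most like *Hey1* were *Morc2a* (Pearson r = 0.97) and *Mms19* (r = 0.96) over 11 arrays. Those most like *Hes1* were *Lrrn4* (r = 0.97), *Pus7* (r = 0.94), and *Tbc1d8* (r = 0.93). For *Hes6* probe 1, added after the data were seen, they were *Capn10*, *Gchfr*, and *Phyhd1*, with r of 0.99, 0.99, and 0.98. The points share the 3 groups and the slides, so these values mostly describe a common order of groups. *Gchfr*, which binds the first enzyme of tetrahydrobiopterin synthesis, fell by 1.17 with siRNA1 and by 1.43 with siRNA2 (limma adjusted p = 0.000173 and 0.000119).

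**Figure D5:**
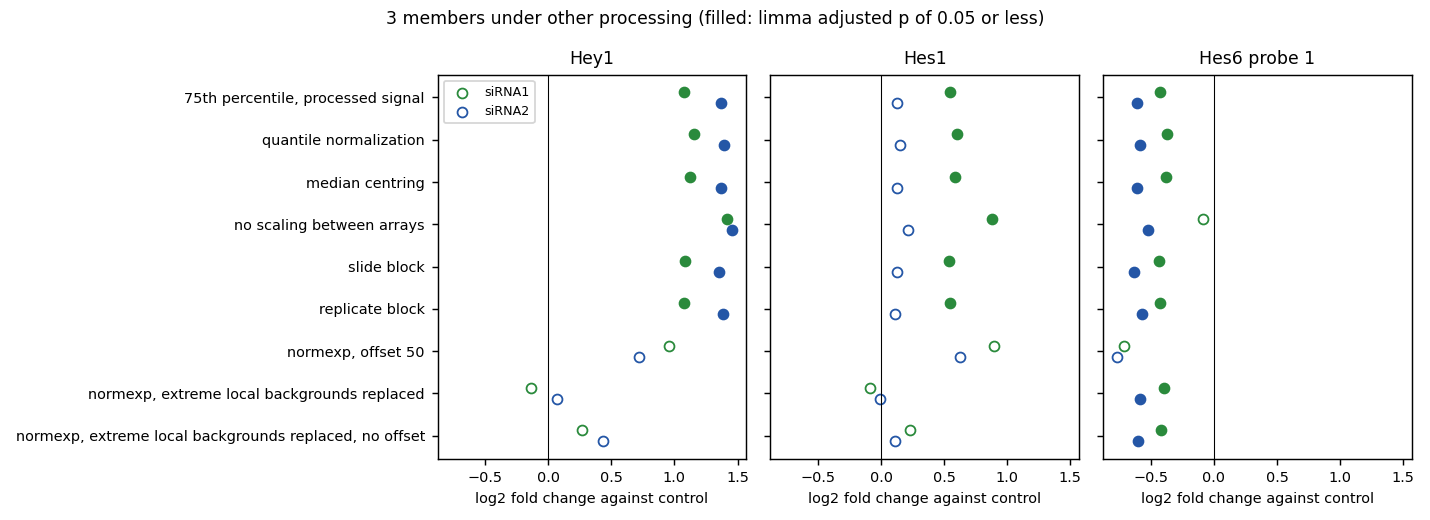
Log2 fold change against control of *Hey1*, *Hes1*, and *Hes6* probe 1 under 9 ways of processing the same arrays, siRNA1 in green and siRNA2 in blue, filled where the limma adjusted p was 0.05 or less. The top row is the processing used in the text. *Hes6* probe 1 stays at or below -0.090 in all rows, whereas *Hey1* and *Hes1* are open in the 3 normexp rows, where *Hey1* with siRNA1 runs from -0.13 to 0.96.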

How the data were processed

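Total RNA of each sample was hybridized to one Agilent single-color array. The authors deposited the scanner output, whose signal intensity was made, per the file headers, in Feature Extraction (version 9.5.1.1) by background subtraction and removal of spatial trends, without normalization between arrays. The deposited median intensities of spots and local backgrounds served for the background alternatives. The deposited table of group averages for selected probes was not used here.

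Spots marked as outliers were left out, control spots were removed, signals were converted to log2, the 75th percentile of each array was subtracted, and spots of a probe were averaged. Probes were named by RefSeq accessions (24375 of 41174 probes, 16998 of them tested). Differences were tested with limma (version 3.58.1, R version 4.3.3) over all 11 arrays in 3 groups, with Benjamini-Hochberg adjustment over 24250 probes. A two-sided exact permutation test is added for single probes. The fit was tested on simulated data. The number of arrays limits the precision. For a probe not well above background on a whole group, the bound uses, per array, the higher of its own signal and the lowest signal marked as well above background. The signal of the other group is taken as read, so the bound holds for the processed signal alone.

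The Hes and Hey genes and all gene lists were chosen with earlier results of these data known. The genes named are all Hes and Hey probes, *Mamld1*, list genes past the test with both siRNAs in the same direction or otherwise the 2 smallest adjusted p of a list, and the 3 genes most like *Hey1* and *Hes1*. One gene that this rule names is not reported here. *Hes6* was added to the last step after its values were seen, with the genes most like it, as were the further list genes named that passed with 1 siRNA alone.

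The alternatives began with normexp (offset 50) on the spot and local background medians. In a variant, local backgrounds above the 99th percentile of the array were replaced by its median. Others were quantile normalization, median centring, no filter or a filter on all 11 arrays, outlier spots kept, and slide or replicate number as a block. Further ones were separate fits, eBayes with trend and robust options, an unpaired t-test, a 2-fold rule, and leaving out each array. The methods name Student's t-test or the Mann-Whitney U-test, without saying which was used for the arrays. Chosen after the data were seen were no scaling between arrays, normexp with replaced backgrounds and no offset, and the spot minus its local background.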

Additional observations from a re-analysis of the deposited data

Results flagged for a closer look

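Both kinds of flag below rest on 1 spot per array. Among 20 groups of 4 arrays checked for a single array far from the others, 2 stood out, and chance alone marks about 1 group in 20. In the first, control array 2 lay below the other control arrays on the *Hes3* probe, with a gap of 0.847 of the whole range on the log2 scale. That spot was not well above background. In the second, siRNA1 array 4 lay below the other siRNA1 arrays on the *Hey2* probe, with a gap of 0.834 of the range, and no *Hey2* spot was well above background.

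*Hes1* differed between the siRNAs by 0.42 on the log2 scale (limma adjusted p = 0.0352), higher with siRNA1 on 4 of 4 arrays than on every siRNA2 array. Over the alternatives other than leaving out an array, the adjusted p of this difference ran from 0.0252 (no scaling) to 0.977 (normexp at offset 50).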

How the results depend on the processing

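*Hes6* probe 1 kept its direction with both siRNAs under every alternative, and lost its call with normexp at offset 50 (-0.71 and -0.76) and, with siRNA1, without scaling (-0.090). Leaving out single arrays, it ran from -0.48 to -0.37 with siRNA1 and -0.68 to -0.57 with siRNA2 and stayed past the test each time. *Hes6* probe 2 passed with siRNA1 without control array 1 (-0.36, adjusted p = 0.0465), siRNA1 array 2 (-0.35, adjusted p = 0.0481), or siRNA1 array 4 (-0.36, adjusted p = 0.0428), and was 0.037 without scaling. With siRNA2 it lost its call at offset 50 (-0.24) and without scaling (-0.46).

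With normexp at offset 50, *Hey1* stood at 0.96 and 0.72, *Hes3* with siRNA1 at 0.90, and the differences between the siRNAs at 0.24 for *Hey1*, 0.22 for *Hes3*, and 0.26 for *Hes5*. That setting moved the median of all tested probes to 0.22, 0.17, and 0.11 in the 3 comparisons and turned *Mamld1* itself to 0.65 and 0.44. It called 0 Hes and Hey probes with limma in each comparison, with 1, 1, and 0 at an unadjusted p under 0.05. With extreme local backgrounds replaced, *Hey1* was -0.13 and 0.068, *Hes1* was -0.087, -0.0091, and -0.078 (between the siRNAs), *Hes5* was -0.19 and -0.058, and 1 probe was called with siRNA1 and 0 between the siRNAs (0 at an unadjusted p under 0.05). Without the offset, *Hey1* was 0.27 and 0.44, *Hes3* with siRNA1 was 0.061, the *Hes5* difference was 0.069, and 1 and 0 probes were called in those comparisons. The cause was not tested.

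Without scaling, *Hes3* with siRNA1 was 0.20, the *Hes5* difference was 0.20 (0.0018 after quantile normalization), and 3 probes differed between the siRNAs, *Hes1* and both *Hes6* probes. The median of all tested probes then moved to 0.20 between the siRNAs, and 4742 of the 24250 passed. The call between the siRNAs fell to 0 with no filter and with trend and robust options (1 probe at an unadjusted p under 0.05 in each). The adjusted t-test gave 1 call. With the 2-fold rule 1, 1, and 0 probes were called.

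Leaving out each array gave counts of 3 to 4 with siRNA1, 3 with siRNA2, and 0 to 1 between the siRNAs. Those fits called 4974 to 6671, 2976 to 4412, and 4235 to 5647 of all 24250 tested probes. They gave *Hey1* 0.90 to 1.19 and 1.19 to 1.47, and *Hes3* -0.56 to 0.052 and 0.096 to 0.70. *Hes5* ran from -0.14 to 0.43 with siRNA1, from -0.091 to 0.47 with siRNA2, and from -0.23 to 0.18 between the siRNAs. Within slides, *Hes1* with siRNA2 was -0.24 on slide 2, *Hes5* was -0.23 with siRNA1 on slide 2, -0.45 with siRNA2 on slide 1, and 0.53 between the siRNAs on slide 1, and *Hey1* was 0.037 between the siRNAs on slide 3.

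Deviations of same-numbered arrays of different groups correlated at -0.18 to 0.53 over 10 pairs (median 0.30, 7 over 0.1), those of differently numbered arrays at a median of -0.10 over 30 pairs (8 over 0.1), and those of arrays on one slide exceeded 0.1 in 10 of 13 pairs. On the same slide the median was 0.30, against -0.12 over 27 pairs on different slides, of which 5 exceeded 0.1. Several same-numbered pairs also shared a slide, so number and slide were not separated. The labels give no shared batch and not every same-numbered pair exceeded 0.1, so the numbers were not taken as a pairing. The main fit used neither the number nor the slide. With the replicate number as a block, 4, 3, and 1 probes were called, and *Hes6* probe 2 passed with siRNA1 (-0.30, limma adjusted p = 0.0214). That setting called 8397, 5847, and 7493 of all 24250 tested probes, more than the main fit in each comparison. With the slide as a block, *Hes6* probe 2 also passed with siRNA1 (-0.34, limma adjusted p = 0.0204), where 8671 of all tested probes passed.

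Over all tested probes, 6553, 4472, and 5709 passed in the 3 comparisons. The counts were 381, 123, and 81 at offset 50 and 726, 545, and 814 with the 2-fold rule. With extreme local backgrounds replaced they were 7550, 3783, and 5535, and without the offset 6111, 3954, and 5324. Between the siRNAs they were 4334 of 41174 without a filter, 6006 with trend and robust options, and 4036 by the adjusted t-test. With siRNA2 they were 2854 by the adjusted t-test, 2179 without scaling, and 2976 without siRNA2 array 2. Signal over background limits *Hey1*, *Hes1*, *Hes3*, and *Hes5*, and leaves *Hes7*, *Hey2*, and *Heyl* without a tested level.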
